A study of Oryza sativa Japonica Group with 4 samples.

Results

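The 2 arrays of nitrogen-starved rice roots (-N) describe what a root expressed before any nitrogen was returned to it, and they were chosen by their titles from the 4 arrays of the series. The plants were seedlings of the japonica cultivar TNG67. Seeds germinated in the dark for 3 days at 30 °C and the seedlings then grew for 2 weeks in hydroponic solution that held no NH4NO3, under a 12 h photoperiod, 200 µmol photons per square metre and second and 70% humidity. At an age of 17 days they were moved for 30 min to fresh solution of the same kind, again with 0 mM NH4NO3, before the roots were taken. Total RNA was extracted with phenol, and biotin-labelled cRNA made from 10 µg of it was hybridised to the Affymetrix Rice Genome Array. The labels call the arrays biological replicates 1 and 2 and do not say whether the seedlings came from separate cultures. No other treatment was compared here, so all values below are a description and no test was made.

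Roots take up nitrogen as ammonium and nitrate through separate families of membrane transporters. Nitrate is reduced to ammonium by nitrate and nitrite reductase, and glutamine synthetase and glutamate synthase then build ammonium into glutamine and glutamate. Rice in flooded soil takes up mostly ammonium, and a starved root is known for keeping high-affinity uptake systems ready while little substrate passes through them.

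After 187 control probe sets had been left out, 57194 rice probe sets were ranked by intensity within each array. A rank was written as a percentile, with 100 for the brightest, and the percentiles of both arrays were averaged. The classes were the top 1% (mean percentile of at least 99), the top 10% (at least 90, the top 1% included), a band around the median (45 to 55) and the lowest 10% (at most 10). The array annotation pairs 22436 probe sets with 1 gene, which gave 17905 genes, and 2458 of these carry a gene name. A gene stands in the ranking by its probe set of highest mean percentile. Of the 2458 named genes, 120 were in the top 1%, 881 in the top 10%, 110 around the median and 45 in the lowest 10%. The median named gene was at percentile 83.4, so a named gene at percentile 80 is an ordinary one. The brightness of a probe set also depends on its own sequence, and a rank is therefore a rank of intensity and not of transcript number. In RNA from a whole root, fewer cells of a type and less RNA per cell cannot be told apart.

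Replicate 2 was the brighter array, with a median intensity of 25.2 against 17.8 on replicate 1, and the ranking removes such a difference of scale. The percentiles of the arrays had a Pearson correlation of 0.961 over the 57194 probe sets, which share the same 2 RNA samples and are not independent. The top 1% began at an intensity of 3244 on replicate 1 and 4078 on replicate 2, and the top 10% at 402 and 560.4. The lowest 10% ended at 5.68 and 6.26. Of the 572 brightest probe sets of each array, 479 were the same, and the probe sets of the top 1% held 27.5% and 24.9% of all summed intensity. The lower classes were less stable. A probe set of the top 10% differed between the arrays by a median of 0.80 percentile points, 1 around the median by 4.77 and 1 in the lowest 10% by 3.03.

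**Figure D1:**
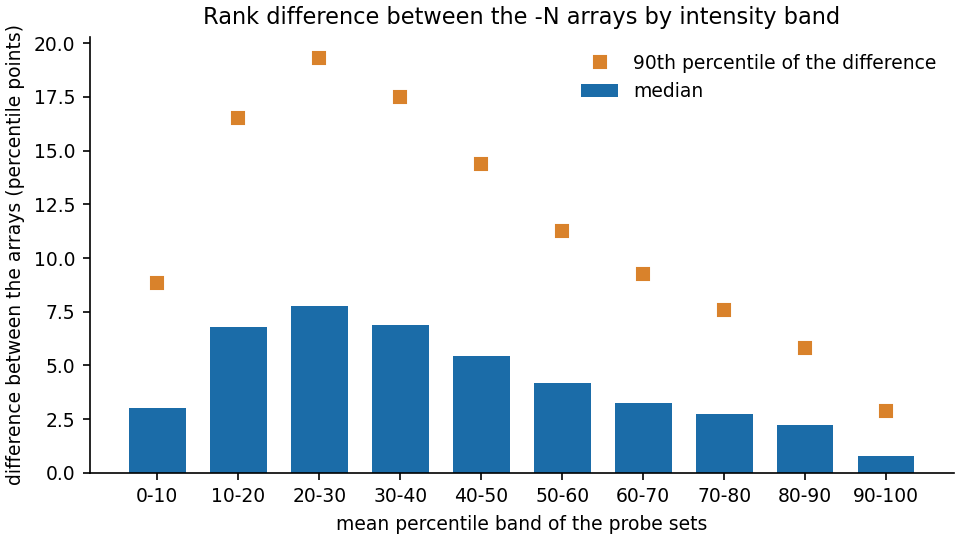
The bars give the median, and the squares the 90th percentile, of the difference between the 2 -N arrays in percentile points, in bands of 10 percentiles of the mean rank over 57194 probe sets. The difference is largest between percentiles 20 and 30, with a median of 7.77, and smallest above percentile 90, with a median of 0.80.

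The 64 reporter control probe sets of the array gave a scale for low ranks. Placed in the ranking of the rice probe sets, they had a median percentile of 17.7, their 90th percentile lay at 44.0 and the highest of them at 66.9. Of the named genes, 1819 (74.0%) lay above the highest reporter probe set and 318 (12.9%) at or below percentile 44.0. A gene in the lowest 10% was therefore within the range of these controls, and whether its transcript was absent was not tested.

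Of the gene lists, metallothioneins (median percentile 99.7), ubiquitin genes (99.5) and ribosomal proteins and translation factors (99.3) had the highest medians. MT4C, a metallothionein (small cysteine-rich proteins that bind metal ions), was the brightest rice probe set on both arrays, with intensities of 20422 and 22234. GOS2, a translation initiation factor of the eIF1 type, ranked 3 and 4 with intensities of 15911 and 16025. GSTF2, a glutathione S-transferase that couples glutathione to toxic compounds, ranked 12 and 8 with 10754 and 12982. All 3 stood in nearly the same place on each array. SAP8, a zinc finger protein of the A20/AN1 stress-associated family, ranked 7 and 17 (11593 and 11782). ARF, here the ADP-ribosylation factor of vesicle traffic and not an auxin response factor, ranked 11 and 16 (10840.3 and 11880.4). SAM1, which makes the methyl donor S-adenosylmethionine, ranked 15 and 29 (10525 and 11096). These genes differed little between the arrays in intensity as well as in rank.

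The next places went to RPS21 of the small ribosomal subunit (9913 and 11109.7) and TCTP, the translationally controlled tumour protein homologue (9683 and 10658). MT1A, a further metallothionein, had 9206 and 11557, and MT4A had 8700.4 and 9003. PAL, phenylalanine ammonia-lyase at the entry of the phenylpropanoid pathway, had 9739 and 10022. JAZ1, a repressor of jasmonate signalling, had 9469 and 9270.4 and ranked 31 and 63. JAZ1 and RPS27AB were the 2 of the 30 highest named genes that were not brighter on replicate 2. TIP1-1, an aquaporin of the vacuolar membrane, had 7576 and 11732, and Lsi1, the silicon uptake channel of the rice root, had 7224 and 9869. PIP1-2, an aquaporin of the plasma membrane, had 5895 and 9532. These 3 channels were the only members of the transporter lists among the 30 highest named genes, and each was brighter on replicate 2.

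The rest of the 30 highest genes were of several kinds, among them genes of the cytoskeleton, protein turnover, translation and chaperones. They included the alpha-tubulin TubA (9105 and 9260.2), the actin ACT7 (7559 and 10089), the elongation factor EF-1-alpha (7988 and 9706) and the chaperone HSP81-3 of the HSP90 family (7811 and 8634). The ubiquitin fusion gene UBQ1 had 8009 and 8521, and UBC5A, a ubiquitin-conjugating enzyme, had 7386 and 8408. CC-1, cytochrome c of the respiratory chain, had 7328 and 8624. APX2, an ascorbate peroxidase that removes hydrogen peroxide, had 6531 and 8651. All of these lay above the lower limit of the top 1% on both arrays. DJA6, a DnaJ co-chaperone, LTI6B, a small membrane protein induced by low temperature, GF14F, a 14-3-3 protein, and the ribosomal proteins RPS27AA, RPS27AB and RPL30 lay between 5882 and 7318 on replicate 1 and between 6949 and 8721 on replicate 2. CAB2R, a chlorophyll a/b-binding protein of leaves, was the remaining gene and is described with the tissue markers.

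**Figure D2:**
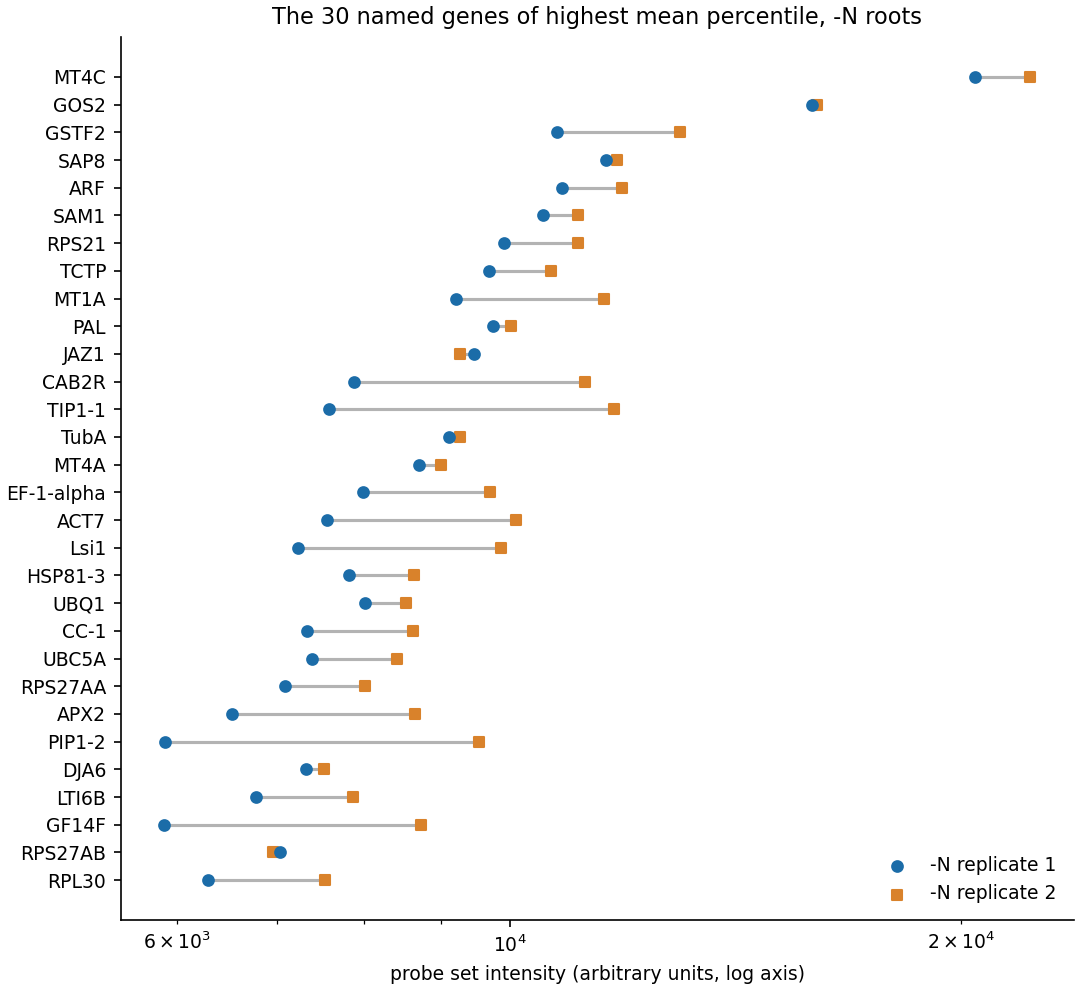
Intensity of the 30 named genes of highest mean percentile on each -N array (circles, replicate 1; squares, replicate 2), on a logarithmic axis in arbitrary units, with a line joining the 2 values of a gene. MT4C stands apart at 20422 and 22234, and the lowest of the 30 by mean percentile, RPL30, has 6292 and 7535.

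Of the genes that handle nitrogen, the cytosolic glutamine synthetases ranked highest. GLN1-1, which binds ammonium to glutamate in the cytosol, had intensities of 5147 and 8144 and ranked 246 and 109 of 57194. GLN1-2, the second cytosolic form, had 2645 and 5442, at percentiles 98.7 and 99.4. Both forms were in the top 1% by their mean, and GLN1-2 was below its limit on replicate 1. GLN1-3, the third cytosolic form, lay near the median instead with 28.4 and 34.2 (percentiles 58.01 and 55.4), within the range of the reporter controls. GLN2, the plastid form, was between them with 122 and 389 (percentiles 77.3 and 86.5), and its second probe set lay at percentile 9.83. The measured forms of this enzyme thus ran from the top 1% to just above the median.

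Glutamate synthase and glutamate dehydrogenase were split in the same way. Fd-GOGAT, the ferredoxin-dependent glutamate synthase, had 387 and 707 (mean percentile 90.8). Its other probe sets lay at percentiles 77.7 and 62.4, so its place in the top 10% rests on the choice of probe set. GLT2, an NADH-dependent glutamate synthase, had 5.72 and 9.34 (mean percentile 17.6), within the range of the reporter controls. GDH1, a glutamate dehydrogenase that can release or bind ammonium, had 353 and 859 (mean percentile 91.1). GDH2 had 328 and 439 (87.9), with further probe sets at percentiles 75.3 and 14.1. GDH3 had 12.3 and 8.43 (31.4), again within the range of the reporter controls. In each of these enzymes 1 member or more was in or near the top 10% and another below the median. Over the 9 named genes of ammonium assimilation the median percentile was 87.9, with 4 genes (44.4%) in the top 10%, beside 35.8% of all named genes. On replicate 1 alone only the 2 genes GLN1-1 and GLN1-2 reached the top 10%, since Fd-GOGAT and GDH1 lay at percentiles 89.7 and 88.9 there.

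The ammonium transporters spread from percentile 97.5 to below the median. AMT1-1, a high-affinity ammonium transporter of the root, was the brightest with 1188 and 3005 (percentiles 96.5 and 98.4). Its second probe set was at 15.01 and 17.8. AMT3-2 had 389 and 1197 (mean percentile 92.5), AMT1-2 265 and 768 (89.3), and AMT2-1 326 and 412 (87.6). AMT1-2 and AMT2-1 changed places between the arrays, so their order is not settled by these 2 replicates. AMT3-3 followed with 97.6 and 210.2 (77.1). AMT3-1 with 25.05 and 26.7 and AMT2-2 with 15.1 and 41.9 lay around the median, within the range of the reporter controls. AMT2-3 was the lowest with 10.1 and 14.8 (37.0), below the 90th percentile of the reporter controls. None of the 8 was in the top 1% or the lowest 10%.

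Nitrate uptake and reduction ranked lower than the leading ammonium genes. NRT2.3, a high-affinity nitrate transporter, had 314 and 1169 (percentiles 87.7 and 95.1). NRT2.2 had 65.9 and 263 (69.8 and 82.1), and its probes may also read a near-identical neighbouring copy of the gene. NAR2.2, a partner protein that NRT2 transporters need at the membrane, had 53.9 and 128 (67.2 and 73.8). NIA1, a nitrate reductase, had 60.5 and 159 (68.7 and 76.3), and its second probe set had a mean percentile of 49.0. Every one of these 4 genes was more than 2 times as bright on replicate 2 as on replicate 1.

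The 21 nitrogen genes had a median percentile of 81.9, close to the 83.4 of all named genes, and 7 of them (33.3%) were in the top 10%. This count differed between the arrays, with 8 of 21 (38.1%) in the top 10% on replicate 2 and 3 (14.3%) on replicate 1. Of all named genes, 37.2% and 34.7% were in that class on these arrays. AMT3-2 and NRT2.3, both among the 7, are each read only by an x probe set, which can match several transcripts. The 21 are the genes with a name and a probe set of their own in the annotation used, and other members of these pathways were not analysed here. The 21 genes differed more between the replicates than named genes did in general. The median ratio of replicate 2 to replicate 1 was 2.15 over the 21 genes and 1.47 over all named genes. At least a 2-fold higher intensity on replicate 2 was seen in 12 of the 21 (57.1%) and in 471 of the 2458 (19.2%). After ranking, 16 of the 21 stood higher on replicate 2, compared with 62.2% of all named genes.

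**Figure D3:**
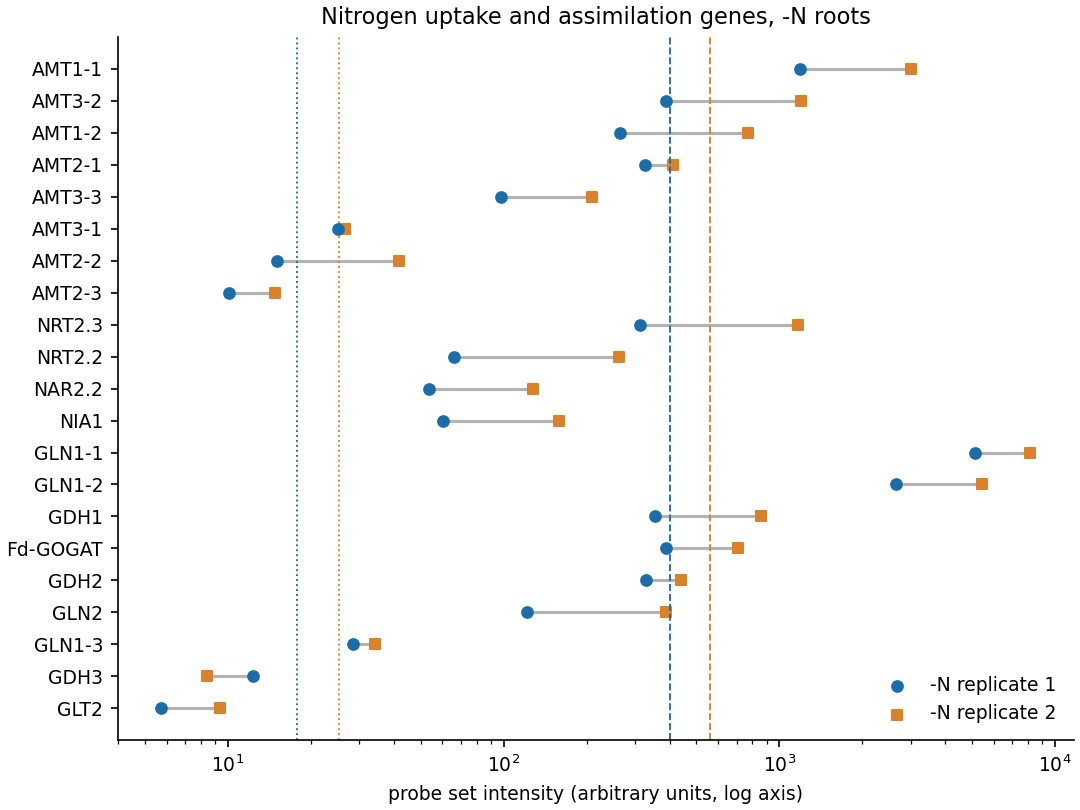
Intensity of the 21 named genes of ammonium transport (AMT), nitrate transport (NRT2, NAR2), nitrate reduction (NIA1) and ammonium assimilation on each -N array (circles, replicate 1; squares, replicate 2), on a logarithmic axis in arbitrary units. Dotted lines mark the median and dashed lines the lower limit of the top 10% of each array in its colour; GLN1-1 and GLN1-2 lie far to the right of both, and GDH3 and GLT2 to the left of the medians.

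Transporters as a group ranked below named genes in general. Their median percentile was 76.3 over 157 genes. Of them, 38 (24.2%) were in the top 10%, 7 (4.46%) in the top 1% and 6 (3.82%) in the lowest 10%. All named genes had a median of 83.4, with 35.8%, 4.88% and 1.83% in these classes. All 17905 genes, named or not, had a median of 78.6 and 24.7% in the top 10%. In these 2 measures transporters were close to all genes and low only beside the named ones. Aquaporins and silicon transporters were the highest of the 9 transporter lists, with a median of 94.6 and 15 of 26 genes in the top 10%. Beside TIP1-1, Lsi1 and PIP1-2, the top 1% held PIP1-1 (3904 and 8519.6), TIP2-1 (2752 and 8082) and PIP2-1 (2748 and 5948). These 3 were more than 2 times brighter on replicate 2, and TIP2-1 and PIP2-1 were below the top 1% on replicate 1. Not all channels were bright, and DTE1, a boron transporter of the NIP family, was in the lowest 10% with 5.47 and 5.68.

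HAK5, a high-affinity potassium transporter, was the remaining transporter of the top 1%, with 5694 and 7486 (ranks 186 and 143). Its second probe set was in the lowest 10% with 4.58 and 4.48, so the class of HAK5 rests on the choice of probe set. The other 27 potassium and sodium transporters were all outside the top 1%. HAK26 (5.06 and 5.62) and HAK27 (4.98 and 5.31), of the same potassium transporter family, were in the lowest 10%. The list as a whole had a median percentile of 71.4.

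Of the 45 metal transporters, which had a median of 76.8, COPT1 of copper uptake was the highest with 2181 and 4510.4, and YSL4, of the yellow stripe-like family that moves metal chelates, the lowest with 5.61 and 6.77. PHT1-1, a phosphate transporter, had 1460.0 and 1901 (percentiles 97.2 and 97.2), whereas PHT1-7 of the same family had 5.22 and 7.84. The median of the 12 phosphate transporters was 57.5. Sugar transporters had a median of 58.5 over 18 genes and reached from MST3, a monosaccharide transporter (2290.2 and 3761), to MST5 (5.54 and 6.06). Phosphate and sugar transporters thus held members near the top and members near the bottom. ABC transporters ran from ABCG42 (823 and 1418) to ABCG45 (7.70 and 14.5), with a median of 75.2 over 12 genes. No auxin carrier reached the top 10%. PIN2, an auxin efflux carrier of the root tip, was the highest of the 5 with 27.5 and 78.9, and PIN4 the lowest with 5.62 and 7.14.

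The 246 enzymes had a median percentile of 82.9. Of them, 83 (33.7%) were in the top 10%, 17 (6.91%) in the top 1% and 8 (3.25%) in the lowest 10%. Of all named genes, 35.8%, 4.88% and 1.83% were in these classes. Genes of reactive oxygen and redox control were the highest of the enzyme lists, with a median of 93.2, 37 of 56 in the top 10% and 8 in the top 1%. Beside GSTF2 and APX2 these were APX1 (4759 and 5778), the copper/zinc superoxide dismutases SodCc1 (6937 and 6752) and SodCc2 (4929 and 5257), the thioredoxin TRXH (4728 and 4821) and the glutaredoxins GRXC6 (4472 and 4088) and GRXS2 (4012 and 3786). By the median over their probe sets, APX2 would stand at percentile 88.2 and TRXH at 56.3, outside the top 10%. GRXC10, also a glutaredoxin by name, was at the other end with 4.69 and 6.26. GSTF2 and its relative GST-I (17.8 and 25.1, percentiles 49.99 and 49.94) stood at the top and at the median of the same array.

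Glycolysis had a median of 87.6 over 20 genes. TPI, triosephosphate isomerase, had 5383 and 7457, and GAPC, the cytosolic glyceraldehyde-3-phosphate dehydrogenase, 4919 and 7784. Eno1, an enolase, had 3081 and 4782, the aldolase FBA1 2836 and 4995, and GAPC3 2654 and 5023. These 5 were in the top 1% by their mean, and Eno1, FBA1 and GAPC3 were just below it on replicate 1. Eno1 has further probe sets at percentiles 60.5 and 14.6. FBA2, a second aldolase, was low with 8.17 and 8.42. Of the 7 genes of fermentation and hemoglobins, Adh2, an alcohol dehydrogenase, was the highest (2178 and 4015) and the hemoglobin NSHB2 the lowest (11.8 and 13.8).

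The phenylpropanoid pathway, which supplies lignin and phenolics, had a median of 90.1 over 16 genes. CAD2, the cinnamyl alcohol dehydrogenase of lignin synthesis, had 5320.3 and 7530.0 and joined PAL in the top 1%, while CAD7 had 6.45 and 5.72. Genes of cell wall synthesis and loosening had a median of 81.3 over 56, from CESA3, a cellulose synthase subunit (1726 and 3627), to the expansin EXP4 (4.37 and 6.41). Sucrose and starch metabolism had a median of 68.6 over 27, with 2 genes in the top 10%. Sus2, a sucrose synthase that opens sucrose for use in sink tissue, was the highest there with 2019 and 3251. AMY1.1, an alpha-amylase of starch breakdown in germinating seeds, was the lowest with 4.63 and 4.76.

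Hormone metabolism had a median of 68.0 over 50 genes, and AOC3, allene oxide cyclase of jasmonate synthesis, was the highest with 2936 and 3271. CKX1, a cytokinin oxidase that degrades cytokinin, was the lowest with 4.91 and 4.44. In the synthesis of nicotianamine, a metal chelator, NAS3 had 332 and 548, and NAS2 was lower with 28.6 and 96.8. Redox, phenylpropanoid, glycolytic and ammonium assimilation genes thus had medians above that of all named genes, and the other 6 enzyme lists below it.

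Housekeeping proteins were ranked for orientation. Of 95 genes, 69 (72.6%) were in the top 10% and 40 (42.1%) in the top 1%, beside 35.8% and 4.88% of all named genes. The median percentile of the 95 was 98.6. Among the 32 ribosomal proteins and translation factors 21 were in the top 1%, and the lowest, RPL27, still had 163 and 254. The 16 of these 21 that were outside the 30 highest genes were EF-1-beta, eIF-4A-1, RPL3, RPL7A-1, RPL7A-2, RPL9, RPL10A, RPL11, RPL39B, RPL39C, RPS3A, RPS4, RPS7, RPS10, RPS15 and RPS26. They ran from 3451 to 6826 on replicate 1 and from 3419.6 to 7591 on replicate 2, with eIF-4A-1, an RNA helicase of translation initiation, the lowest on replicate 2. The other of the RPL10A probe sets had a mean percentile of 58.6. UBQ2, a ubiquitin fusion gene, had 4612 and 5688, and RUB2, a ubiquitin-like modifier, was the lowest of its list with 1481 and 1588. The 7 metallothioneins lay between MT4C and MT2A (3134 and 3216), and MT2C (6318 and 6679) and MT2B (5254 and 7278) were also in the top 1%. MT2A has further probe sets at percentiles 67.7, 24.8 and 16.6, and the lowest probe set of MT2B lay at 6.59. The histones H2B.6 (4880.2 and 5897) and H2B.5 (4014 and 4972) were in the top 1%, and all 5 listed histones in the top 10%, with H2B.10 the lowest (1022 and 942). Of actin, tubulin and actin-binding genes 8 of 24 were in the top 1%, among them ACT1 (3436 and 6412), TUBB1 (3464 and 6645), TUBB5 (3071 and 4708), TUBA1 (2749.6 and 6006) and the actin-depolymerising factors ADF4 (5398 and 7415) and ADF2 (4189 and 4048). By the median over its probe sets TUBB1 would stand at percentile 58.8. ADF9 of the ADF family was among the 20 lowest named genes with 4.35 and 5.11. Heat shock proteins were lower than the other housekeeping lists, with a median of 59.6 over 23 genes. HSP81-3 and HSP81-2 (6056 and 6197) were in the top 1%, and the small heat shock protein HSP16.9B had 6.005 and 6.61.

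**Figure D4:**
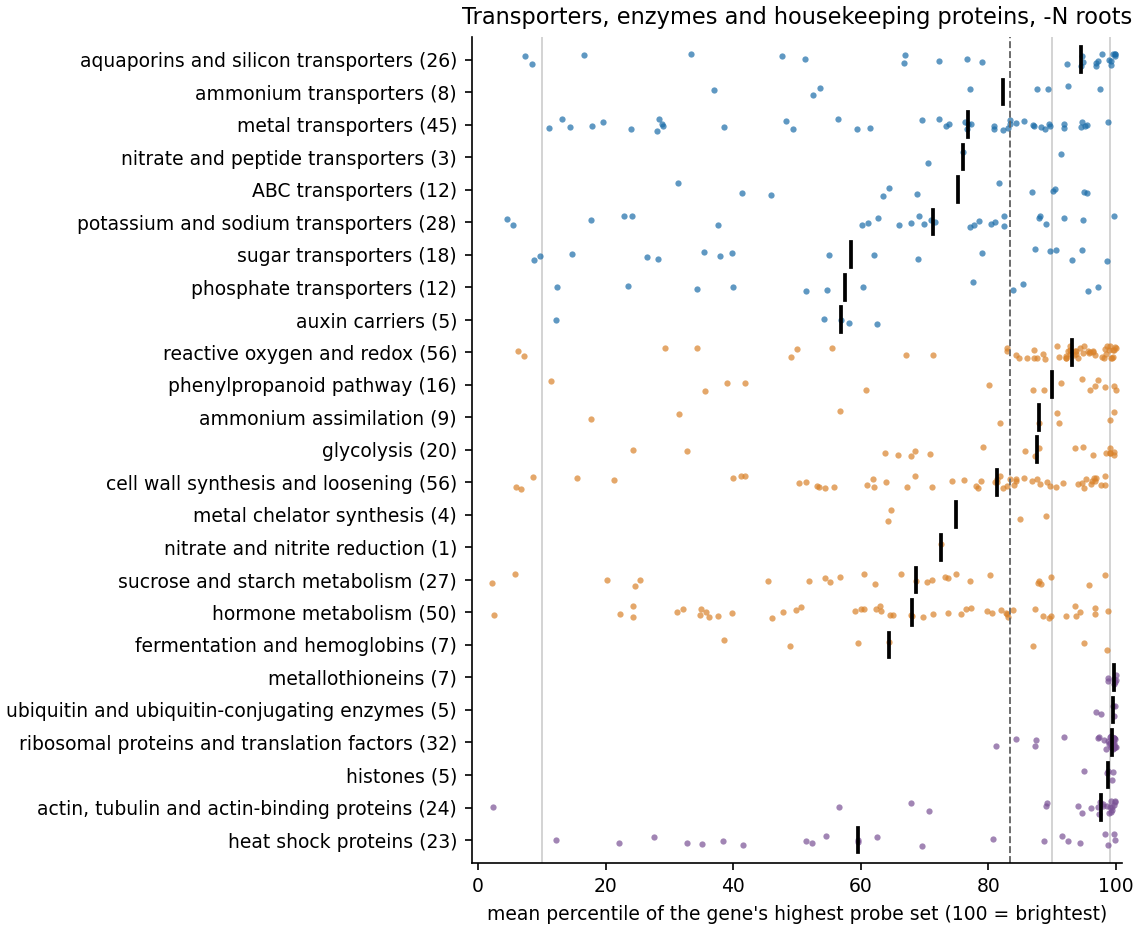
Each point is a named gene at the mean percentile of its highest probe set on the 2 -N arrays (100 is the brightest), in rows by gene list with the number of genes in brackets; short bars are list medians, grey lines the limits of the lowest 10%, top 10% and top 1%, and the dashed line the median of all named genes, 83.4. Aquaporins, with a median of 94.6, lie furthest right of the transporter lists, and metallothioneins, with 99.7, of all lists shown.

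Regulators were less frequent in the top 1% than named genes in general. Of 471 listed genes, with a median percentile of 81.3, 6 (1.27%) were in the top 1%. In the top 10% were 140 (29.7%) and in the lowest 10% 11 (2.34%). Of all named genes, 4.88%, 35.8% and 1.83% were in these classes. Of all 17905 genes, named or not, 2.27% were in the top 1% and 24.7% in the top 10%. The 6 regulators of the top 1% were 3 Aux/IAA repressors of auxin signalling and 3 calcium sensors. IAA3 had 5765 and 6937, IAA13 4341 and 7894, and IAA17 4032 and 5418. The calmodulins CAM3 (4894 and 7474) and CAM1-1 (5025 and 5466) and the calmodulin-like CML27 (4189 and 5209) made up the rest. IAA3 and CML27 have second probe sets at percentiles 46.95 and 50.1, so their class, like that of HAK5, rests on the choice of probe set. Calmodulin genes are alike in sequence, and their probe sets may not separate them. JAZ1 was on no list and is not counted among the 6.

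Signalling kinases and their partners had list medians between 82.4 and 92.4. The MAPK cascade had a median of 92.4 over 16 genes, with MEK1 (1529 and 1850.0) the highest and MPK16 (23.5 and 33.2) the lowest. CBL calcium sensors and calmodulins had a median of 91.0 over 33 and reached down to CML32 (7.76 and 11.3). Calcium-dependent protein kinases had a median of 89.98 over 20, from CPK13 (1979.7 and 2345) to CPK29 (7.56 and 6.51). SnRK and WNK kinases had 85.9 over 21, led by WNK9 (1765 and 1703), and none of them was below WNK3 (32.2 and 42.4). CIPK kinases, which CBL sensors activate, had a median of 82.4 over 24, with CIPK2 at 2787 and 3071 and CIPK30 at 5.96 and 6.47. Protein phosphatases 2C had 83.4 over 55, from OsPP2C14 (2372 and 2487) to OsPP2C61 (5.79 and 5.16).

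Among transcription factors, the auxin response factors and Aux/IAA repressors had a median of 85.6 over 43 genes, although IAA8 was in the lowest 10% with 5.44 and 6.2005. The bZIP factors had 84.8 over 21 genes, with OsbZIP37 at 1335 and 1952 and BZIP02 at 21.2 and 22.1. NAC factors had 83.4 over 8, from NAC5 (1012 and 1369) to NAC010 (5.69 and 7.23). These medians were within 3 percentile points of that of all named genes. MYB factors lay between MYBAS1 (1374 and 2165) and JAMYB (93.1 and 109), and DOF factors between DOF4 (1146 and 1201) and DOF1 (167 and 248). The WRKY factors ran from WRKY71 (614 and 544) to WRKY62 (199 and 19.99). In homeobox factors Hox16, with 2604 and 3366, was far above WOX10 with 6.24 and 6.604, and a further probe set of Hox16 was at percentile 2.91.

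Heat stress factors ran from HSFB1 (1689 and 1290.2) to HSFB2B (13.1 and 12.1), and NF-Y subunits from HAP3B (1072 and 1603) to NFYB1 (7.90 and 13.8). GRAS factors lay between CIGR1 (866 and 1022) and SCR1 (13.4 and 16.2). AP2/ERF factors lay between TOE1 (885 and 719.8) and DREB2D (5.28 and 4.72), which was among the 20 lowest named genes. The bHLH and MADS families were the lowest lists of regulators. The 13 bHLH factors had a median of 43.0, from IBH1 (952 and 745) to bHLH080 (5.68 and 6.45). The 31 MADS factors, many of which act in flowers, had a median of 39.1, and 6 of them were in the lowest 10%.

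Regulators of the clock and of flowering time had a median of 88.0 over 17 genes. GI, a clock component, had 2166 and 2719.8, while Hd1, which sets flowering by day length, had 5.13 and 6.78. In the cytokinin pathway AHP2, a phosphotransfer protein, had 1985 and 2200.0, and the response regulator RR41 had 4.57 and 5.08. Of 40 cyclins and cyclin-dependent kinases CycC1;1 was the highest (844 and 909). CycB1-1, a mitotic cyclin of dividing cells, was the lowest with 6.69 and 7.82. Every one of these 3 lists reached from the top 10% to below percentile 20.

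**Figure D5:**
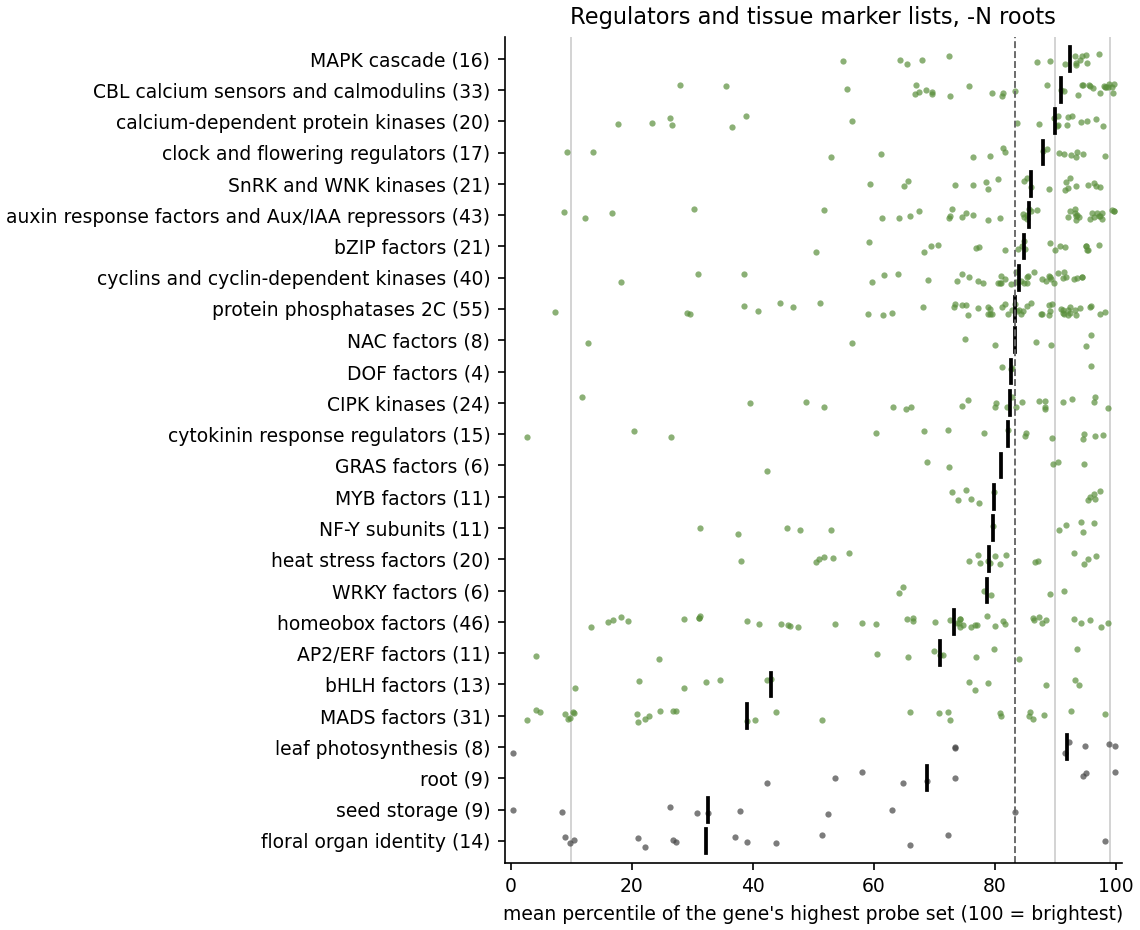
Each point is a named gene at the mean percentile of its highest probe set on the 2 -N arrays (100 is the brightest), in rows by list of regulators (green) or tissue markers (grey), with the number of genes in brackets; short bars are list medians, grey lines the limits of the lowest 10%, top 10% and top 1%, and the dashed line the median of all named genes, 83.4. The MAPK cascade has the highest median of the regulators, 92.4, and MADS factors the lowest, 39.1.

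The middle of the ranking held genes of low intensity. The band around the median ran from 14.2 to 23.5 on replicate 1 and from 19.6 to 33.3 on replicate 2, and 2743 of the 5720 probe sets in it on each array were shared. The 10 named genes nearest percentile 50 were of several kinds. GST-I was the closest. HSFA2A, a heat stress factor, had 19.3 and 24.2, ORC3, a subunit of the complex that starts DNA replication, 17.0 and 27.3, and EXP6, an expansin, 16.7 and 27.9. RPA32C, a single-strand DNA binding subunit, had 23.8 and 19.8. GH3.4, of the family that conjugates auxin, had 14.9 and 30.5, the formin FH11 15.3 and 29.0, and OsCASPL2A1, of the Casparian strip protein-like family, 13.4 and 34.3. The list closed with BZIP02 and with bip115 (13.4 and 38.5). Of these, bip115 (percentiles 43.7 and 57.3) and OsCASPL2A1 (43.6 and 55.5) lay outside the band on both arrays, below it on replicate 1 and above it on replicate 2, and RPA32C (55.2 and 45.3) lay outside it on replicate 1.

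The 20 lowest named genes had intensities of at most 5.83 on both arrays, and several are known from seeds or flowers. RBCS1, a Rubisco small subunit gene, was the lowest with 4.14 and 3.97, and GLUA-3, a seed storage glutelin, was next with 4.04 and 4.22. Cht4, a chitinase, had 3.86 and 4.78. LFL1, a B3 factor of the group that controls seed development, had 4.23 and 4.73. CYP703A3, a cytochrome P450 known from the anther, had 4.59 and 4.91. The seed gene MADS29 had 4.14 and 5.35, MADS30 4.49 and 5.67, and the inflorescence gene MADS34 5.18 and 5.19.

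Several enzymes were also among the 20 lowest. TPP6, a trehalose-phosphate phosphatase, had 4.64 and 5.15, CIN3, a cell wall invertase, 4.93 and 5.83, and ASMT3, of the methyltransferases of melatonin synthesis, 4.51 and 5.75. CYP71Z6, a cytochrome P450 of diterpenoid defence, had 5.23 and 5.08, and Y14B, of the exon junction complex, 4.36 and 5.16. The order within the 20 was not stable. MADS29 was at percentiles 0.469 and 4.74, and CKX1 at 4.02 and 0.903. Of the 45 named genes in the lowest 10%, 43 have a single probe set, and 28 were in the class on both arrays.

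Tissue markers were checked against the label of the samples as root. Of 9 measured root genes, Lsi1, the silicon exporter Lsi2 (596 and 1486) and RAA1, a gene of root development (828 and 1180.0), were in the top 10%. This share of 33.3% was close to the 35.8% of all named genes. OsCASP1, of the Casparian strip in the endodermis, had 49.2 and 236, and SHR1, a regulator of root radial pattern, 62.0 and 83.9. NAS1 had 29.2 and 104, QHB of the root quiescent centre 27.9 and 41.1, and CSLD1, of root hair growth, 24.0 and 27.6. SCR1, the partner of SHR1, was the lowest of the list and lay below percentile 44.0. No root gene was in the lowest 10%, which held only 1.83% of all named genes. The list median was 68.8, below the 83.4 of all named genes. RCc2, RCc3, RCg2, CRL1, ARL1, RTH1, RHL1 and EXPB5 were also planned as root genes but are not among the 9 measured.

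Seed and flower markers were mostly low. Of 9 seed storage genes 6 lay at or below percentile 44.0 and none in the top 10%. Of all named genes, 12.9% lay at or below percentile 44.0 and 35.8% in the top 10%. The glutelin genes GLUA-1 (5.30 and 6.29), GLUB-4 (11.9 and 8.30) and GLUB-5 (7.01 and 11.8) were low, and so were PROLM25 (8.48 and 21.3) and RA17 (9.08 and 12.3). GLUA-2 was the exception with 232 and 257, followed by RA14 (42.3 and 52.8) and RA5 (17.7 and 33.0). Of 14 floral organ identity genes 10 lay at or below percentile 44.0, with a list median of 32.2. MADS16, which specifies stamens in flowers, was in the top 10% with 2191 and 2514, read by a single probe set. MADS14 (84.3 and 108), MADS4 (56.0 and 60.6) and MADS2 (20.4 and 25.6) followed. The others, in order of mean percentile, were MADS15, MADS1, DL, MADS6, MADS17, MADS13, MADS24, MADS58, MADS45 and MADS3. MADS15 had 12.6 and 19.8, and MADS3 had 6.08 and 5.36.

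Leaf photosynthesis genes went against the root label in rank. Of 8 named genes 5 (62.5%) were in the top 10%, beside 35.8% of all named genes, and 3 of 8 were on replicate 1 alone. CAB2R had 7869.8 and 11216 (ranks 71 and 25), and its second probe set had 3881 and 8154. LHCP, also a chlorophyll a/b-binding protein, had 2361 and 4882, and PSAH, a photosystem I subunit, 654 and 1466. The other 2 were rca, the Rubisco activase (354 and 1241), and RBCS-C, a Rubisco small subunit (304 and 1303), and on replicate 1 they lay at percentiles 88.9 and 87.4. The other probe sets of RBCS-C lay at percentiles 73.1, 72.2 and 12.0. Its place in the top 10% thus rests on the choice of probe set. PSB28 of photosystem II had 66.1 and 169, and PSAG of photosystem I 75.5 and 145. RBCS1 was the exception as the lowest named gene of all.

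The list was also brighter on replicate 2, where 7 of 8 stood at a higher percentile, with a median intensity ratio to replicate 1 of 2.15. Of all named genes 62.2% stood higher on replicate 2, and their median ratio was 1.47. The labels name root tissue only. Whether any shoot RNA was in these samples was not tested. The nitrogen genes were brighter on the same array by a like ratio, and whether the leaf genes and the nitrogen genes moved together was not tested.

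Some named genes had no settled rank. The percentiles of 199 of the 2458 named genes (8.10%) differed by more than 10 points between the arrays, and those of 15 by more than 25. The largest difference was that of WRKY76, a repressor of defence genes, with 268 on replicate 1 and 18.2 on replicate 2 (percentiles 86.2 and 43.5). WRKY62, its close relative, moved likewise from 199 to 19.99. RH2, an RNA helicase by name, had 1028 and 63.2. These 3 were the genes of this group that were well above the reporter controls on replicate 1 and far lower on replicate 2.

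Of the other 7, LPR1, by name of the multicopper oxidase family known from phosphate starvation, was also higher on replicate 1 (13.4 and 7.15). LPR4 of the same family was higher on replicate 2 (7.72 and 53.3). So were HSP23.2 (8.17 and 35.5), CPS1, the first enzyme of gibberellin synthesis (7.26 and 25.9), EXPB18, a beta-expansin (12.1 and 79.4), BGLU26, a beta-glucosidase (5.01 and 12.1), and OsCel9C, an endoglucanase (5.001 and 11.5). All 7 had intensities of at most 12.1 on their lower array, in the range of the reporter control probe sets.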

How the data were processed

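The authors deposited a linear intensity per probe set and array. GCOS and RMA stand in the submitters' processing notes, and which normalization they applied is not stated in any source used. The 2 columns of the arrays with NH4NO3 were not used. Of 57381 probe sets, 187 controls (64 reporter and 123 other) were left out. The percentile was the rank, counted upwards from the dimmest probe set, minus 0.5 and as a percentage of 57194, per array and then averaged. No detection call was used.

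Probe sets were paired with genes through the platform annotation, and 95 paired with several and 34663 with none were not named. Names came from a RefSeq table (assembly ASM3414082v1), which held all 17905 genes. Since 82 of them have a symbol of their own, names were also taken from synonyms, which departs from the first design. Of 53 planned lists of name patterns, 51 held a gene, and 77 mismatched entries were removed by gene identity, 3 of them after their values had been seen. The members and lists were chosen with earlier results of these data known. The text names the 30 highest, 20 lowest and 10 middle named genes, the 10 with the largest differences between arrays, all nitrogen and marker genes, and the extremes and top 1% members of other lists.

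Alternatives were mean log2 intensities, each array alone, other probe set rules, other ranking sets and class membership on both arrays. The ranking code was run on simulated arrays of known order, in which the second array was a rescaled copy of the first without noise. That run checks the code only and cannot show how stable the ranks of these data are. Python 3.11.15, pandas 2.3.3, numpy 2.4.6 and matplotlib 3.10.9 were used. The number of arrays limits the precision.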

Additional observations from a re-analysis of the deposited data

How the results depend on the processing

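Of the 2458 named genes, 98.9% kept their class with mean log2 intensities, 92.5% on replicate 2 alone, 92.6% on replicate 1 alone and 99.7% with the control probe sets kept. Ranking only the probe sets paired with 1 gene changed most values, because it leaves out mostly dim probe sets: 64.0% kept their class, the class counts became 61 in the top 1%, 475 in the top 10%, 218 around the median and 138 in the lowest 10%, and the medians 52.8 (transporters), 64.3 (enzymes), 61.2 (regulators) and 97.1 (housekeeping). Counting genes in a class on both arrays left 41 around the median and 28 in the lowest 10%, and 100 in the top 1% and 820 in the top 10%. With the median over a gene's probe sets, the medians were 71.1, 78.3, 78.8 and 97.4 in the same order. Without the x and s probe sets, which can match several transcripts and whose loss left 2322 named genes, they were 73.6, 82.4, 81.5 and 97.8. On a single array they ranged from 74.2 to 75.9 for transporters, 83.0 to 83.3 for enzymes, 81.5 to 81.8 for regulators and 98.6 to 98.7 for housekeeping proteins. Transporters had the lowest and housekeeping proteins the highest of the 4 medians under every alternative run. Of 523 named genes with several probe sets, 143 (27.3%) had probe sets more than 50 percentile points apart, and 17 had them in both the top and the lowest 10%. By the median over the probe sets, 21 of the 120 named genes of the top 1% left it and 12 left the top 10%, among them HAK5, IAA3, CML27, APX2, LTI6B, TRXH, Eno1, TUBB1 and RPL10A. No paired analysis was possible because no groups were compared. Below about percentile 67, reporter controls and genes overlap, which limits what a low rank can show.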

Other observations

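Most bright probe sets belonged to genes without a name. Of 406 genes in the top 1%, 120 were named. These were 4.88% of the 2458 named genes, while 2.27% of all 17905 genes were in the class. Named genes were thus more frequent in the top 1% than genes in general. The highest of the unnamed genes were LOC4352868, with intensities of 15224 and 17689 (ranks 4 and 2), LOC4333690 with 14097 and 14836, LOC4333019 with 11085 and 12976, LOC4339526 with 10247 and 13615, and LOC4328121 with 10451 and 12223.

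The share of probe sets paired with 1 gene was higher in the top classes than in the lower ones. It was 83.1% in the top 1%, 85.2% in the top 10%, 26.7% around the median and 15.4% in the lowest 10%, beside 39.2% of all rice probe sets. Named genes stood on 25.8% of the probe sets of the top 1% and on 2.15% of those in the lowest 10%. Among all rice probe sets the share was 5.58%. The lowest class therefore held few genes that the annotation describes.

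The replicates differed by gene group. Cell wall genes were at least 2-fold brighter on replicate 2 in 25 of 56 cases (44.6%) and aquaporins in 12 of 26 (46.2%), beside 19.2% of all named genes. Of the 32 ribosomal proteins and translation factors and the 7 metallothioneins, 0 were. Regulators had 38 of 471 (8.07%). The ribosomal and metallothionein lists had median percentiles of 99.3 and 99.7, and shares at equal intensity were not compared.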
